A study of Mus musculus with 7 samples.

Results

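The genes of the machinery that docks, primes and fuses synaptic vesicles were followed across RNA sequencing libraries of mouse neural crest-derived cells. Members were taken by name only, as genes of the deposited table whose mouse symbol belongs to the synaptotagmins (Syt), synapsins (Syn), synaptophysin (Syp), synaptogyrins (Syngr), numbered syntaxins (Stx), syntaxin-binding proteins (Stxbp), SNAP proteins, VAMPs, Rims, complexins (Cplx), Unc13, Sv2 and Rab3 families, or is Nsf, Bsn or Pclo. They numbered 75 of 27179 genes in the table. The naming rule leaves out symbols that end in a letter after the number, such as Stx1a, a syntaxin of nerve terminals, and takes in Snap91, a clathrin adaptor of vesicle recycling that is no SNARE. In Wnt1-tdT mice, Cre recombinase driven by the Wnt1 promoter turns on the red reporter tdTomato in neural crest cells and their progeny. All 7 groups held 1 library each, pooled from 3 mice aged 1 month (2 female and 1 male) that carried Wnt1-Cre and R26R-tdT. Fresh bowel cells and fresh adipose cells were tdTomato-positive cells sorted as soon as enzymes (collagenase XI and dispase) had freed them from the smooth muscle and myenteric plexus of the small bowel or from posterior subcutaneous fat pads. M1 neurospheres were fresh-sorted bowel cells cultured for 10 days. tdTomato-positive and tdTomato-negative spheroid cells were sorted from mixed bowel spheroids after 10 days of culture. M2 neurospheres and adipose neurospheres came from mixed spheroids of 10 days whose tdTomato-positive cells were sorted and cultured for 10 further days. All cultures had fibroblast and epidermal growth factors, each at 20 ng/mL, and heparin.

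A synaptic vesicle fuses when a SNARE on the vesicle (a VAMP) zips together with SNAREs of the plasma membrane (a syntaxin and Snap25). Munc13 (Unc13) proteins help to assemble the SNAREs, complexins hold them, synaptotagmins trigger fusion when calcium enters, and Nsf takes the spent complex apart. Rim, bassoon and piccolo organise the release site, and Rab3 tethers vesicles to it. Neurons use Syt1, Snap25, Vamp1, Vamp2 and Cplx1 for this, whereas relatives such as Snap23, Vamp3 and Vamp8 serve secretion and membrane traffic in most cells. Enteric neurons release acetylcholine, amines, purines and peptides onto gut muscle and other neurons.

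Total reads on genes ran from 51885106 to 65301500 a library. Levels are given as CPM, the reads of a gene scaled to its library's total. With 1 library a group there is no replicate check and no test, so intervals cover counting error only. In these bulk samples, fewer cells of a type and less RNA per cell cannot be told apart. Sox10, a crest and glial factor, had between 98.0 and 899.6 CPM in the 6 tdTomato-positive libraries and 5.23 CPM in the tdTomato-negative one. The fresh libraries also held transcripts of other cells. The summed level of 10 pancreatic acinar markers was 52265 CPM in fresh bowel cells and at most 243 CPM elsewhere, that of 7 smooth muscle markers was 25165 CPM there against 442 CPM in fresh adipose cells, and that of 8 lymphocyte and dendritic markers was 7189 and 4828 CPM in fresh bowel and adipose cells. By the 4-fold rule given below, 5 of the 8 lymphocyte and dendritic markers were lower in fresh bowel than in fresh adipose cells and 0 higher (median log2 ratio -4.76). Of all genes measured, 7.1% were lower and 11.4% higher. The part of these other cells in the results was not tested. The 6 islet markers summed to 45.6 CPM in fresh bowel cells, where 2 of them reached 1 CPM. These 2 were both called higher there than in fresh adipose cells (median log2 ratio 8.75). Sst had 35.4 CPM of the sum, while Ins1 and Ins2 were listed at 0 reads. The part of islet cells in the results was not tested.

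The promoters of the members were searched for 3 short motifs, and a few are shown for the genes that later results turn on. RefSeq promoter windows of GRCm38.p6 (250 bases before to 50 after a start) were found for 58 of 75 members. A cyclic AMP response element (TGACGTCA, bound by CREB), searched on both strands with 0 mismatches, stood in the windows of Syn1 (159 bases before the start) and Stxbp3 (108 bases before) and in 1.79% of all 32851 windows. A GC box (GGGCGG, either strand), bound by Sp1, stood in 62.5% of 24 windows of the genes called brain-type below, in 67.3% of 49 windows of other members and in 35.7% of all windows, and a TATA box (TATAAA, either strand) in 8.33%, 6.12% and 13.6%. The median GC content was 60.7% for brain-type windows, 63.3% for other members and 52.7% over all. Matches are a description of the letters only. The windows of Syn1 (chrX:20920869-20921168, minus strand) and Stxbp3 (chr3:108840453-108840752, minus strand) are shown because they hold the response element, and those of Syt1 (chr10:109010926-109011225, minus strand, 1 of its 2 windows) and Cplx1 (chr5:108549978-108550277, minus strand) because these genes were high in fresh bowel cells and had few or no reads in some other libraries. Capitals mark the response element and GC boxes, on either strand.
Syn1: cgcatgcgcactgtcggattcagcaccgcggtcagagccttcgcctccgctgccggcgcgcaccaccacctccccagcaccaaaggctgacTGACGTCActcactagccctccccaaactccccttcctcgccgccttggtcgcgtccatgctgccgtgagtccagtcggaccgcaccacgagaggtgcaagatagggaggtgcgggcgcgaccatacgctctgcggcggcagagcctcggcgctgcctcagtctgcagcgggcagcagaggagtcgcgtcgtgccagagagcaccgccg
Stxbp3: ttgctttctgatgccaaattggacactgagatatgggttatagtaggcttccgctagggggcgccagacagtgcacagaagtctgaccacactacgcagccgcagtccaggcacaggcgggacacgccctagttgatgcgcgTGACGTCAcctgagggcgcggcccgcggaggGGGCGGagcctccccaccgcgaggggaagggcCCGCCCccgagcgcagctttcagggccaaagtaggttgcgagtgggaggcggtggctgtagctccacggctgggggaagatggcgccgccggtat
Syt1: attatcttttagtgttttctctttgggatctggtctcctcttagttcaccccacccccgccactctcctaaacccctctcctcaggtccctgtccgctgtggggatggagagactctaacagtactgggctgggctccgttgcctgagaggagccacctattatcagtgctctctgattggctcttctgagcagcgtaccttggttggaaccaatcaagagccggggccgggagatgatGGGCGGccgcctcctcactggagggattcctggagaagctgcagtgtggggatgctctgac
Cplx1: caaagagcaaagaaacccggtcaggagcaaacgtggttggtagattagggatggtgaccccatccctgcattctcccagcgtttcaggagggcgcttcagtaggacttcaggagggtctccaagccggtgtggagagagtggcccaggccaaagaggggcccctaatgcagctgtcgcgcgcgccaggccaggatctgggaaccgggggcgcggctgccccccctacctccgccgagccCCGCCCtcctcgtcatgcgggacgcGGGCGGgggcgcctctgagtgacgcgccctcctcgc

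The members were read as 22 brain-type genes, a set chosen from those known for release at brain synapses, and 53 others. The others are not a set without neuronal genes, since they include the neuronal synaptogyrin Syngr3 and the fast calcium sensor Syt9. Of the 22 brain-type genes (among them Syt1, Syt2, Syn1 to Syn3, Syp, Snap25, Vamp1, Vamp2, Cplx1, Cplx2, Rims1, Rims2, Unc13a, Sv2a to Sv2c, Rab3a, Rab3c, Bsn and Pclo), 13 had their highest level in fresh bowel cells, 7 in M1 neurospheres and 2 in the tdTomato-negative spheroid cells. Their summed level was 1773 CPM in fresh bowel cells, 983 in M1 neurospheres, 394 in M2 neurospheres and 309.9 in tdTomato-positive spheroid cells. It was 501 CPM in the tdTomato-negative cells, above their tdTomato-positive partners, and 187 and 236 CPM in fresh adipose cells and adipose neurospheres. The other 53 members had a summed level between 1376 CPM (tdTomato-negative cells) and 2794 CPM (fresh bowel cells). In all, 68 of 75 members reached 1 CPM in a library, and 35 did so in every library.

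**Figure D1:**
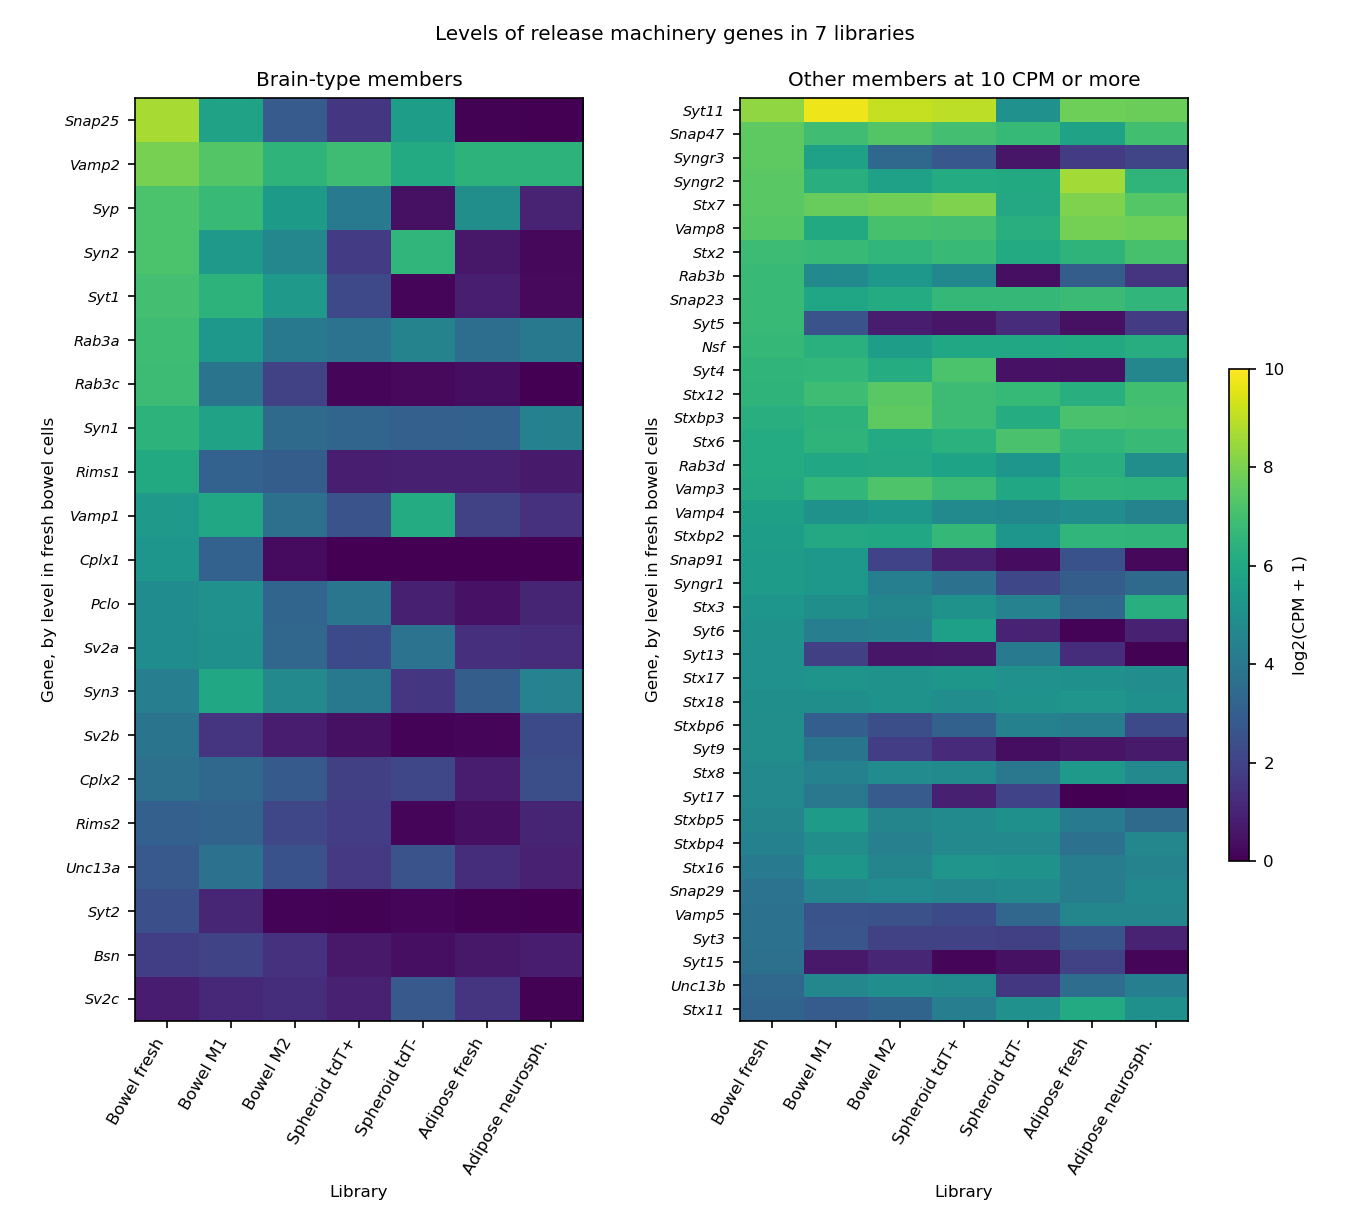
Heat map of log2(CPM + 1) for 21 brain-type members (left) and the 39 other members that reached 10 CPM (right), genes in rows by their CPM in fresh bowel cells and the 7 libraries in columns. Yellow is high and dark blue low: most brain-type genes are lightest in fresh bowel cells and M1 neurospheres and dark in the adipose libraries, while most other members differ less between libraries.

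To ask how the release machinery differed by tissue, fresh bowel cells were set against fresh adipose cells. A member was called higher or lower at 4-fold or more with a 95% counting interval wholly beyond 2-fold, after scaling by TMM. Of the 75 members 67 were measured, at 1 CPM or more in either library; 33 were called higher in bowel cells and 1 lower, while 11.4% of all 15585 genes measured were called higher and 7.1% lower. The median log2 ratio was 1.98 over measured members and -0.09 over all genes. Brain-type genes made up 18 of the 33, of 22 measured, and other members 15, of 45 measured. Pan-neuronal markers moved with them, at a summed 1584 CPM in bowel and 108 CPM in adipose cells (11 of 12 called higher). Mesothelial markers, of the cells that line the gut wall, summed to 1319 and 12.7 CPM (5 of 5 higher). Glial markers summed to 1501 and 7474 CPM (1 of 10 higher, 3 lower), and Schwann cell myelin markers to 813 and 4612 CPM (5 of 5 lower). The part of these cell types in the members' ratios was not tested.

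Snap25, the SNARE of nerve terminals cut by botulinum toxin (Entrez 20614; chromosome 2, 136713439 to 136782428, GRCm38), had the largest log2 ratio of the members read in both tissues. It had 417 CPM in fresh bowel cells, 53.1 in M1 neurospheres, 6.34 in M2 neurospheres, 2.01 in tdTomato-positive and 47.3 in tdTomato-negative spheroid cells, 0.0312 in fresh adipose cells and 0 in adipose neurospheres. Fresh bowel cells stood above every other library, and both adipose libraries held at most 2 reads. The fresh bowel over adipose log2 ratio was 12.76, 95% counting interval 11.87 to 16.77. Cplx1, a complexin of fast synapses (Entrez 12889; chromosome 5, 108518554 to 108550027, GRCm38), had 37.5 CPM in fresh bowel cells, 7.94 in M1 and 0.214 in M2 neurospheres, and 0 reads in the 4 other libraries. With 0 reads set to a floor of 3 reads, it was 810.2-fold higher in fresh bowel than in fresh adipose cells. Its log2 ratio had a 95% counting interval from 9.36 upward. Its relative Cplx2 was read in all libraries, from 0.734 CPM in fresh adipose cells to 11.9 CPM in fresh bowel cells (log2 ratio 3.99).

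Among calcium sensors, 11 of 15 measured synaptotagmins were called higher in bowel cells and none lower. Syt1, the main sensor of fast release (Entrez 20979; chromosome 10, 108497650 to 109010980, GRCm38), had 129 CPM in bowel and 0.812 CPM in adipose cells, a log2 ratio of 7.28, 95% counting interval 6.94 to 7.75. Syt5 had 105 against 0.375 CPM, and Syt9, another fast sensor, 29.7 against 0.453 CPM (log2 ratios 8.03 and 5.97). Syt2, the fast sensor of motor and hindbrain terminals, reached only 4.49 CPM in bowel cells, with 2 reads in adipose cells (log2 ratio 6.23, 95% counting interval 5.32 to 10.24). Syt4, a calcium-insensitive synaptotagmin of peptide vesicles, had 91.6 against 0.375 CPM, and Syt6 33.0 against 0.0625 CPM. Syt17 and Syt16 had 0 reads in fresh adipose cells, so bowel cells held at least 539-fold more Syt17 and 152-fold more Syt16. Syt11, which binds no calcium and acts in membrane uptake, was high in both tissues at 324 and 222 CPM and was not called (log2 ratio 0.57).

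Vesicle proteins followed, with 7 of 10 measured called higher in bowel cells. Synapsin 2 (Syn2), which clusters vesicles, had 141 against 0.547 CPM, a log2 ratio of 7.95, 95% counting interval 7.55 to 8.55, and Syn1 had 87.5 against 7.67 CPM (3.53). Syngr3, a neuronal synaptogyrin, had 181 against 2.34 CPM (6.27). Synaptophysin (Syp), the most used marker of synaptic vesicles, was read in fresh adipose cells at 30.0 CPM against 145 CPM in bowel cells (2.28). The widely expressed Syngr2 had 389 CPM in adipose and 174 CPM in bowel cells and was not called (log2 ratio -1.14). Syngr1 had 44.5 against 6.70 CPM and the clathrin adaptor Snap91 45.3 against 4.75 CPM (2.75 and 3.27). At the release site, 7 of 8 measured genes were called higher: Rims1 had 67.1 against 0.859 CPM, and piccolo (Pclo) 28.0 against 0.406 CPM. Unc13b was the exception, at 9.48 and 10.8 CPM. Rab3a, Rab3b and Rab3c were called higher (log2 ratios 3.43, 3.96 and 8.47), and Rab3d, the Rab3 of exocrine and other secretory cells, was not (-0.12).

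SNAREs other than Snap25 and Vamp1 were not called higher. Vamp2, the main vesicle SNARE of synapses, had 246 against 88 CPM (log2 ratio 1.5), while Vamp1 had 40.7 against 2.91 CPM (3.81). Stx11, a syntaxin of blood cells, was the 1 member called lower in bowel cells, with 8.42 CPM there and 68.3 CPM in adipose cells, a log2 ratio of -3.0, 95% counting interval -3.14 to -2.86. Of 8 lymphocyte and dendritic markers, 5 were called lower in fresh bowel cells and 0 higher, beside 7.1% and 11.4% of all genes. Their sum went the other way, at 7189 CPM in fresh bowel and 4828 CPM in fresh adipose cells. In cultured cells, where these markers summed to at most 73.1 CPM, Stx11 ranged from 6.55 to 32.8 CPM. From fresh adipose cells to adipose neurospheres Stx11 went from 68.3 to 31.6 CPM (log2 ratio -1.26, not called), and all 8 markers were called lower. The part of such cells in the level of Stx11 was not tested. Syt15 missed the 4-fold rule when libraries were scaled by total counts (log2 ratio 1.99 in place of 2.01).

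**Figure D2:**
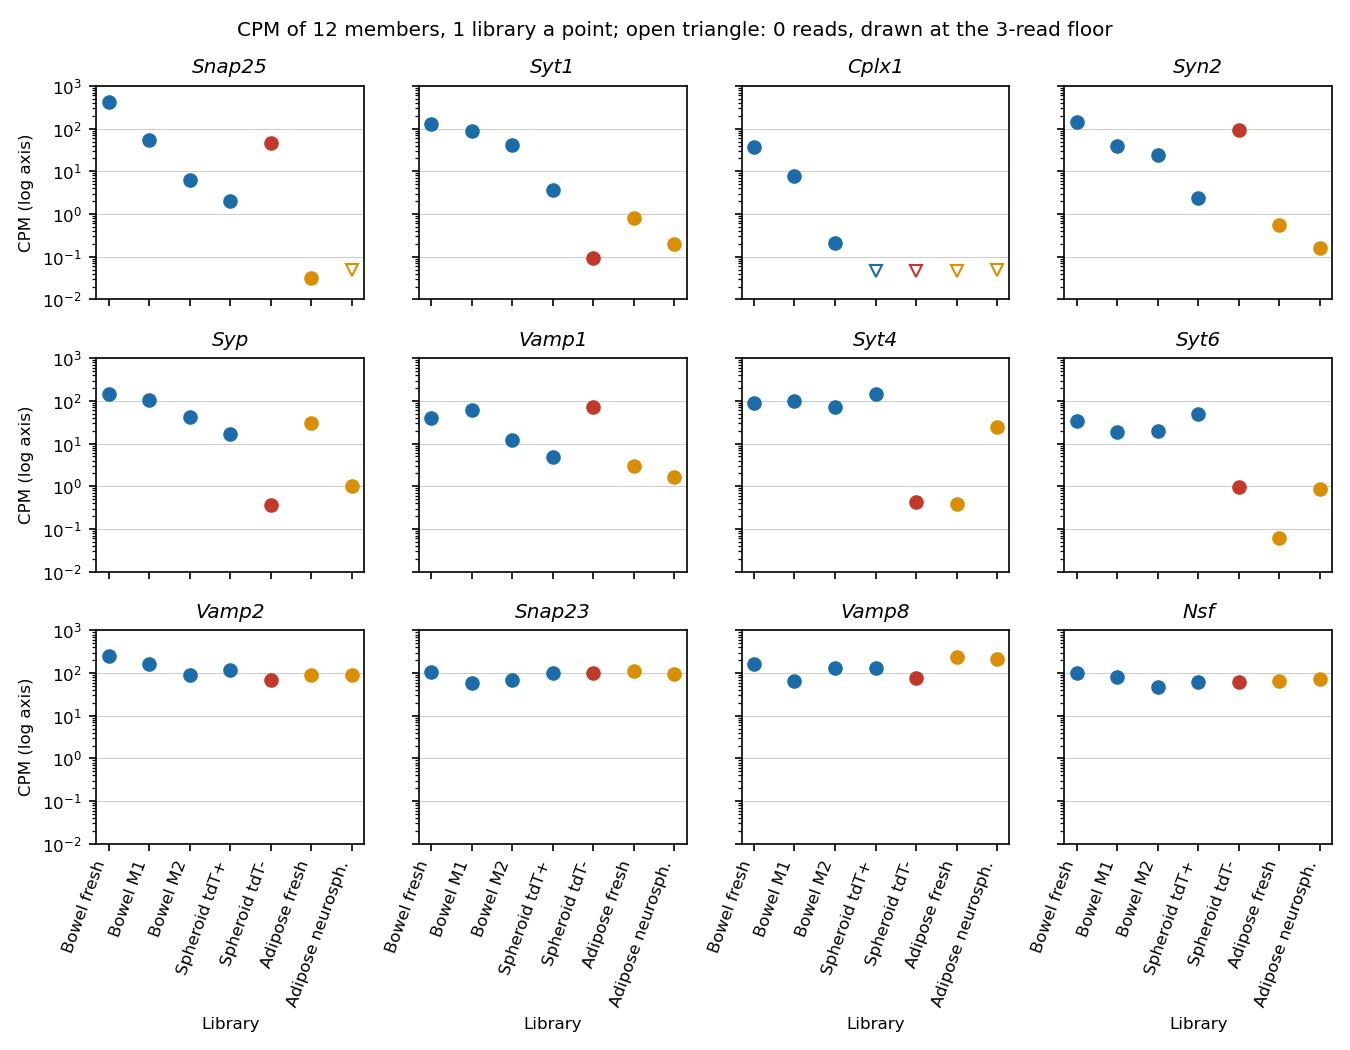
CPM on a log axis of 12 members in the 7 libraries, 1 point a library, with an open triangle at the level of 3 reads where a library had 0 reads; blue marks tdTomato-positive bowel cells, red tdTomato-negative bowel cells and orange adipose cells. Snap25, Syn2 and Vamp1 are high in the tdTomato-negative cells while Syt1, Syp, Syt4 and Syt6 are low there, and Snap23, Vamp8 and Nsf stay between 46.2 and 237 CPM in all libraries.

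In bowel spheroids sorted after 10 days, the machinery was split between crest and non-crest cells. Of 57 measured members, 12 were called higher in tdTomato-positive cells and 10 lower, beside 6.64% and 12.5% of all 13951 genes measured. The median log2 ratio was -0.08 over members (0.16 when scaled by total counts) and 0.0074 over all genes. Synaptotagmins and vesicle proteins were each split: 5 of 12 synaptotagmins were called higher and 4 lower, and 3 of 9 vesicle proteins higher and 3 lower.

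On the tdTomato-positive side stood Syt4, with 144 against 0.417 CPM, a log2 ratio of 8.10, 95% counting interval 7.65 to 8.79. Syt6 had 48.4 against 0.974 CPM and Syt11 514 against 31.9 CPM (log2 ratios 5.35 and 3.77). The Syt4 and Syt6 levels of these cells were the highest of the 7 libraries. Rab3b, a vesicle GTPase of secretory cells, had 24.4 against 0.34 CPM and Syp 16.7 against 0.356 CPM (5.81 and 5.21). Syt1 was low in both, at 3.59 and 0.0928 CPM (4.67). Pclo, Unc13b, Rims2, Syn3, Syngr3 and Syt10 were the other members called higher, with log2 ratios between 2.70 and 3.79. Syn3 is uncertain, since Timp3, a matrix protease inhibitor encoded on the opposite strand, shares 14.1% of its exon bases and had 635 against 168 CPM.

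On the tdTomato-negative side stood Syn2 (Entrez 20965; chromosome 6, 115134902 to 115282626, GRCm38), which had 141 CPM in fresh bowel cells, 40.3 in M1 neurospheres, 23.7 in M2 neurospheres, 2.41 in tdTomato-positive and 94.0 in tdTomato-negative spheroid cells, 0.547 in fresh adipose cells and 0.162 in adipose neurospheres. The tdTomato-negative cells held the second highest level after fresh bowel cells, and the sort gave a log2 ratio of -5.51, 95% counting interval -5.76 to -5.30. Snap25 had 47.3 CPM in negative against 2.01 CPM in positive cells (-4.78, 95% counting interval -5.06 to -4.54). Vamp1 reached its highest level of all libraries in the negative cells, 70.2 against 4.97 CPM (-4.05). Syt13, Syt12, Syt7 (a slow, high-affinity calcium sensor), Syt17, Unc13c, Sv2c and Sv2a were called lower in positive cells, with log2 ratios from -5.01 (Syt13, 0.573 against 16.5 CPM) to -2.0 (Sv2a). Sv2a and Syt17 missed the rule when scaled by total counts (log2 ratios -1.76 and -1.83).

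Pan-neuronal markers did not move with Snap25 and Syn2 here. The 12 summed to 27.3 CPM in the negative and 3857 CPM in the positive cells, of which Gap43 alone had 3094 CPM. All 8 measured were called higher in the positive cells, beside 6.64% of all genes. Elavl3, Nefl and Prph had 0 reads and Elavl4 0.155 CPM in the negative cells. In the positive cells Nefl and Prph were low as well, at 0.031 and 1.30 CPM, and Elavl4 had 11.5 CPM. Glial markers summed to 28.2 and 5556 CPM. Fibroblast markers summed to 46593 CPM in the negative and 4808 CPM in the positive cells, and 3 markers of interstitial cells of Cajal, the pacemaker cells of gut muscle, to 161 and 34.3 CPM. Their part in the levels of Snap25, Syn2 and Vamp1 was not tested.

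**Figure D3:**
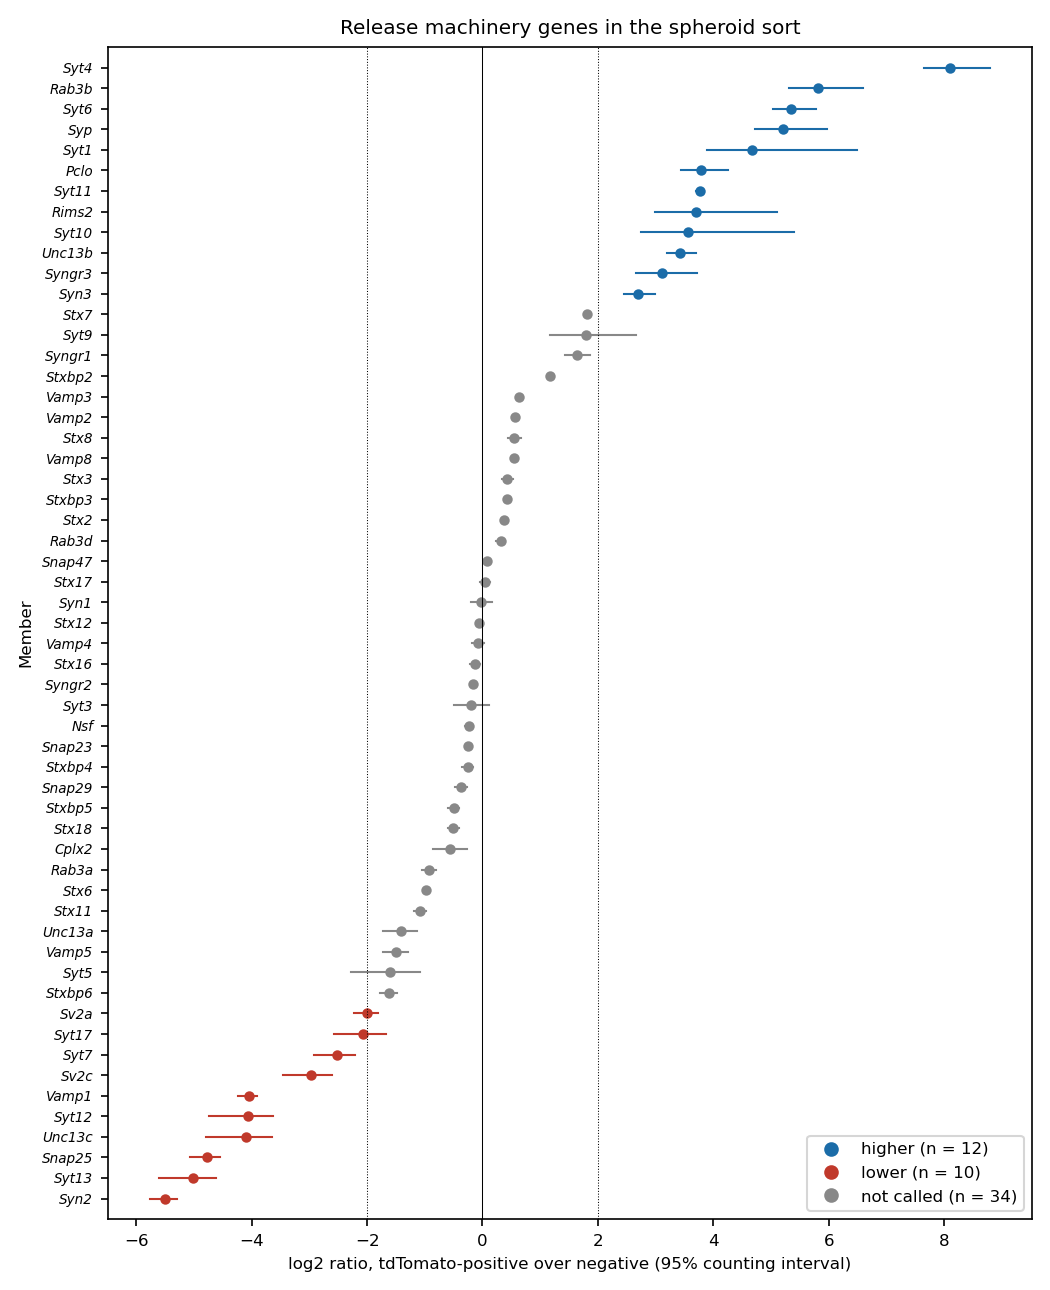
Log2 ratio of tdTomato-positive over tdTomato-negative spheroid cells for 56 of the 57 measured members, with 95% counting intervals as bars and dotted lines at 4-fold; blue members were called higher, red lower and grey neither. Points run from -5.51 (Syn2) to 8.10 (Syt4), with 34 of those drawn uncalled.

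Culture was then followed from fresh bowel cells. In M1 neurospheres, 14 of 67 measured members were called lower than in fresh bowel cells and none higher. Of all 15422 genes measured, 16.4% were called lower and 6.59% higher. By the 2-fold rule 28 members were lower and 3 higher, with no share of all genes taken under that rule. In M2 neurospheres 22 of 67 were called lower and 1 (Syt10) higher, beside 21.0% and 5.89% of 15189 genes. Median log2 ratios over members were -0.78 and -1.13, and over all genes -0.07 and -0.07. Both comparisons share the fresh bowel library. In CPM, 13 of 22 brain-type genes were higher in fresh bowel cells than in M1 neurospheres and 9 were lower. In the same reading, 21 were higher in M1 than in M2 neurospheres and 1 lower, and 19 were higher in M2 neurospheres than in tdTomato-positive spheroid cells and 3 lower. Of the 53 other members, these counts were 29 against 21, 31 against 19 and 27 against 23. These orders follow the raw CPM and are no calls, and no share of all genes was taken for them. The TMM factors were 0.903 for fresh bowel cells, 1.24 for M1, 1.10 for M2 and 1.02 for tdTomato-positive spheroid cells. Raw CPM places a library with a larger factor higher than TMM scaling does, so it raises M1 neurospheres most.

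Calcium sensors differed among themselves. Syt5 had 105, 4.82, 0.75 and 0.526 CPM in fresh bowel cells, M1 neurospheres, M2 neurospheres and tdTomato-positive spheroid cells, called lower in both methods (log2 ratios -4.89 in M1 and -7.34 in M2). Syt1 had 129, 87.5, 41.1 and 3.59 CPM in the same order and was not called in M1 or M2 (log2 ratios -1.02 and -1.93). Syt9 had 29.7, 13.8, 2.54 and 1.35 CPM in the same order, called lower in M2 and not in M1 (-1.56 and -3.81). Syt13 was called lower in both (log2 ratios -4.02 and -6.16), from 32.5 CPM to 2.72 and 0.521 CPM. Syt4 and Syt11 were not called in either: Syt4 had 98.2 and 72.7 CPM, and Syt11 had 851 and 559 CPM, against 91.6 and 324 CPM in fresh bowel cells. Syt10, a sensor of growth factor release in neurons, had 0.277 CPM in fresh bowel and 1.55 CPM in M2 cells (2.08, 95% counting interval 1.42 to 3.05); no member passed upward among genes at 5 CPM or more.

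Among SNAREs and their partners, Snap25 was called lower in both methods (log2 ratio -3.43, 95% counting interval -3.49 to -3.38 in M1; -6.32, 95% counting interval -6.47 to -6.19 in M2). Cplx1 was called lower in both as well (-2.69 and -7.51), reaching 0.214 CPM in M2 neurospheres. Vamp1 had 40.7, 60.9, 12 and 4.97 CPM in fresh bowel cells, M1 neurospheres, M2 neurospheres and tdTomato-positive spheroid cells and was called lower in M2 (log2 ratio -2.04), but not when scaled by total counts (-1.76). Vamp2 had 246, 160.4, 90.1 and 119 CPM in the same order, with log2 ratios of -1.08 and -1.74 that did not pass. Stxbp6 (amisyn), a syntaxin-binding inhibitor of SNARE assembly, was called lower in both (-2.55 and -3.08).

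Of vesicle proteins, 3 of 10 measured were called lower in M1 and 6 in M2, beside 16.4% and 21.0% of all genes. Syp had 145, 106, 42.8 and 16.7 CPM in fresh bowel cells, M1 neurospheres, M2 neurospheres and tdTomato-positive spheroid cells and was called lower in M2 (log2 ratio -2.04, or -1.75 and uncalled when scaled by total counts) and not in M1 (-0.91). Syn1 had 87.5, 52.9, 9.88 and 8.65 CPM in the same order (log2 ratios -1.18 and -3.43, called in M2). Syngr3 had 181, 52.4, 9.46 and 5.60 CPM in the same order and Sv2b 13.3, 1.93, 0.735 and 0.371 CPM in the same order, both called lower in both methods. Sv2a, the vesicle protein bound by the antiepileptic levetiracetam, had 27.7, 31.4, 8.82 and 3.81 CPM in the same order and was called in neither (-0.28 and -1.93). Scaling by total counts ended the M1 calls of Rab3a, Rab3b, Syn2 and Syngr3 (log2 ratios -1.62, -1.97, -1.81 and -1.79) and the M2 calls of Syngr2 and Syt17 (-1.74 and -1.96).

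Of release site genes only Rims1 was called lower, from 67.1 CPM to 7.94 in M1 and 6.69 in M2 neurospheres (log2 ratios -3.53 and -3.60). This was 1 of 8 measured in each method, beside 16.4% and 21.0% of all genes called lower in M1 and M2. The other 7 of 8 were called in neither direction, and with so few genes no difference from all genes is read from this. Pclo had 28.0, 32.0, 8.64 and 14.3 CPM in fresh bowel cells, M1 neurospheres, M2 neurospheres and tdTomato-positive spheroid cells (log2 ratios -0.27 and -1.98). Rims2 had 7.37, 8.09, 3.37 and 2.54 CPM in the same order, and Unc13a, the main Munc13 of excitatory synapses, 5.98, 12.6, 4.73 and 2.15 CPM in the same order. Bassoon (Bsn) had 2.65, 3.16, 1.70 and 0.604 CPM in the same order. Of the Rab3 GTPases, Rab3a and Rab3c were called lower in both (-2.08 and -3.23 for Rab3a, -3.54 and -5.57 for Rab3c), and Rab3d in neither (-0.61 and -0.38).

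Pan-neuronal markers summed to 1584, 1865, 3870.1 and 3857 CPM in fresh bowel cells, M1 neurospheres, M2 neurospheres and tdTomato-positive spheroid cells, most of it the growth cone protein Gap43 in the last 2 (2917 and 3094 CPM). Of the 12 measured, 5 were called lower and 1 higher in M1 neurospheres than in fresh bowel cells, and 6 lower and 2 higher in M2 (median log2 ratios -0.54 and -1.49). Prph (peripherin), a filament protein of peripheral neurons, had 328, 12.1, 2.21 and 1.30 CPM in that order. The neurofilament gene Nefl had 44.0, 1.79, 0.322 and 0.031 CPM, and Stmn2, which acts on microtubules in growing axons, 228, 74.5, 23.1 and 8.48 CPM. Elavl4, an RNA-binding protein of neurons, had 162, 207, 125 and 11.5 CPM. These markers thus differed among themselves, with Prph, Nefl and Stmn2 at their highest in fresh bowel cells. Glial markers summed to 1501, 3049.9, 5229 and 5556 CPM in the same order, with 2 of 10 called higher and 1 lower in M1, and 5 higher and 0 lower in M2. Mesothelial markers summed to 1319, 65.0 and 0.199 CPM in fresh bowel cells, M1 and M2 neurospheres (4 and 5 of 5 called lower). Smooth muscle and acinar markers summed to at most 219.5 and 243 CPM in these 3 cultures, and macrophage markers to 3800.0 CPM in fresh bowel cells and 1335 CPM in M1 neurospheres. Their part in the members' ratios was not tested.

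The second culture stage was read by setting M2 neurospheres against the tdTomato-positive spheroid cells, the stage at which M2 cultures are sorted. Of 61 measured members 8 were called higher in M2 neurospheres and none lower, beside 3.07% and 3.84% of all 13432 genes measured. Among genes at 5 CPM or more 4 members were higher, with no share of all genes taken at that level. Medians were 0.14 over members and -0.02 over all genes, and the M2 library is the one also set against fresh bowel cells. Syt1 rose from 3.59 to 41.1 CPM, a log2 ratio of 3.39, 95% counting interval 3.21 to 3.60. Syn2 rose from 2.41 to 23.7 CPM (3.17, 95% counting interval 2.95 to 3.43). Rims1 had 0.774 and 6.69 CPM (2.95), Rab3c 0.124 and 2.89 CPM (4.11) and Syt17 0.836 and 6.39 CPM (2.77). Rims3, Syt15 and Syt16 made up the rest, at most 1.58 CPM. Snap25 did not pass, at 2.01 and 6.34 CPM (log2 ratio 1.53), nor did Syp at 16.7 and 42.8 CPM (1.24). Pan-neuronal markers summed to 3857 and 3870.1 CPM in the 2 libraries, with 2 of 9 measured called higher in M2 and 0 lower. Gap43 had 3094 and 2917 CPM and Elavl4 11.5 and 125 CPM. Their part in the members' ratios was not tested.

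Fat-derived cells were compared before and after culture. Adipose neurospheres against fresh adipose cells had 5 members called higher and 8 lower of 52 measured, beside 5.72% and 20.8% of 14773 genes. At 5 CPM or more the counts were 2 and 4, with no share of all genes taken at that level. The median log2 ratio was -0.18 over measured members and -0.01 over all genes. Syt4 had 0.375 CPM in fresh cells and 24.0 CPM in neurospheres (log2 ratio 5.74, 95% counting interval 5.27 to 6.5). Stx3, a syntaxin of apical membranes and ribbon synapses, had 9.42 and 78.5 CPM (2.91), its highest level of the 7 libraries. Sv2b had 0.125 and 3.72 CPM, Cplx2 0.734 and 4.27 CPM, and Syt5 0.375 and 2.37 CPM (log2 ratios 4.45, 2.35 and 2.42).

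Synaptophysin was called lower in adipose neurospheres than in fresh adipose cells, from 30.0 to 1.01 CPM, a log2 ratio of -5.0, 95% counting interval -5.43 to -4.68. Snap91, Syt13, Syt15, Syt3, Stxbp6, Syngr2 and Sv2c were the other members called lower, of which Syngr2 had the highest level, 389 and 92.6 CPM (-2.22). Schwann cell myelin markers summed to 4612 and 26.0 CPM and lymphocyte and dendritic markers to 4828 and 27.8 CPM in the same libraries (5 of 5 myelin markers called lower). Pan-neuronal markers summed to 108 and 873 CPM, with 2 of 6 measured called higher and 0 lower. Of these, Uchl1 had 8.97 and 502 CPM and Tubb3 44.5 and 209 CPM. The part of these cell types was not tested. With 2-stage culture, 7 of the 51 members measured in both tissues (Snap91, Stxbp6, Syngr2, Syp, Syt13, Syt15 and Syt3) were called lower in both, a share of 13.7%, beside 11.9% of all 13895 genes measured in both. No member was called higher in both, and 1.45% of genes were. Of 13 further members called lower in bowel and not called in fat, Rab3a, Syn1, Syngr3 and Vamp1 were measured in fat, and the other 9, among them Snap25, Cplx1 and Rab3c, were under 1 CPM in both adipose libraries, so that no call could be made there. The difference between tissues was not tested.

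**Figure D4:**
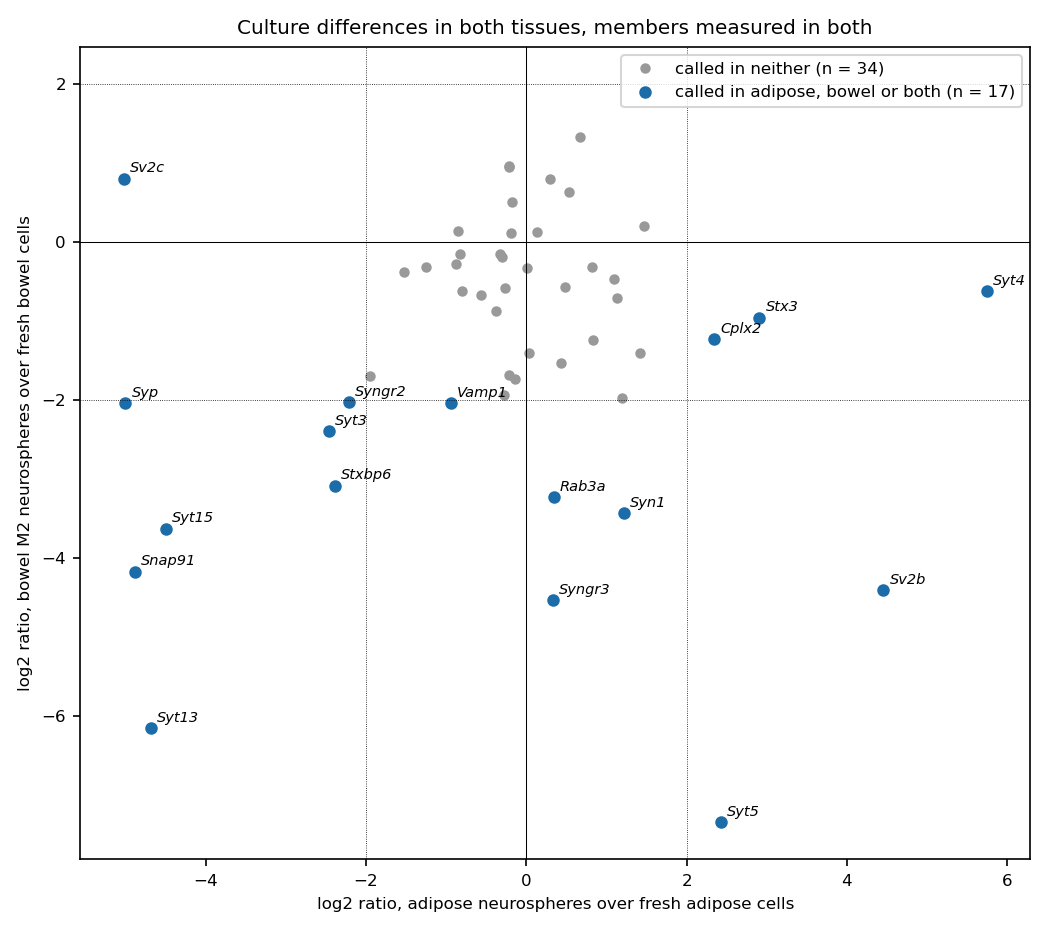
Log2 ratio of adipose neurospheres over fresh adipose cells (x axis) and of bowel M2 neurospheres over fresh bowel cells (y axis) for the 51 members measured in both, with dotted lines at 4-fold and members called in either comparison named. Most named members lie below 0 on the y axis, Sv2b and Syt5 lie low on the y axis and to the right on the x axis, and Syt4 is at 5.74 on the x axis and -0.62 on the y axis.

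Bowel and fat were then compared after 2 stages of culture. M2 neurospheres had 20 members called higher than adipose neurospheres and 4 lower, of 64 measured, beside 8.69% and 5.33% of 13440 genes. At 5 CPM or more the counts were 11 and 2, with no share of all genes taken at that level. Medians were 0.58 over members and 0.0113 over all genes. Syt1 had 41.1 against 0.195 CPM, a log2 ratio of 7.38, 95% counting interval 6.79 to 8.56, Syn2 23.7 against 0.162 CPM (6.81) and Syp 42.8 against 1.01 CPM (5.25). Snap25 and Rab3c had 0 reads in adipose neurospheres and were 119.8-fold and 54.7-fold higher in M2 neurospheres against a floor of 3 reads. The 95% counting intervals of their log2 ratios ran from 6.60 and 5.46 upward. Release site genes were called higher in 5 of 8 measured, such as Rims1 (3.15) and Pclo (2.85). Lower in M2 neurospheres were Syt12, Sv2b, Vamp5 and Stx11 (log2 ratios -2.59, -2.40, -2.37 and -2.06), the last of which missed the rule under total-count scaling (-1.94). Syn1 parted from Syn2: it had 19.8 CPM in adipose and 9.88 CPM in M2 neurospheres and was not called (-1.12). Pan-neuronal markers summed to 3870.1 CPM in M2 and 873 CPM in adipose neurospheres, with 5 of 9 measured called higher in M2 and 1 lower. Glial markers summed to 5229 and 3014 CPM (3 of 10 higher, 1 lower), and their part was not tested.

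Several members that serve membrane traffic in most cells were called in no comparison, while Syngr2 was called lower in M2 and in adipose culture. No syntaxin but Stx11 and Stx3 was called in any of the 7 comparisons, and Stx7 and Stx12, syntaxins of endosomes, ranged over 64.5 to 269.7 and 78.6 to 171 CPM. The others at 10 CPM or more ranged as follows: Stx2 68.4 to 137, Stx6 68.7 to 139, Stx8 14.9 to 39.9, Stx16 16.9 to 38.1, Stx17 28.6 to 38.7 and Stx18 28.5 to 36.2 CPM. Stx17, which drives fusion of autophagosomes, and Stx18, a syntaxin of the endoplasmic reticulum, had the narrowest ranges of these. Nsf ranged over 46.2 to 100 CPM, Snap23 over 59.9 to 112, Snap29 over 12.9 to 27.4 and Snap47 over 52.9 to 182 CPM. Stxbp2 and Stxbp3, which bind syntaxins in secretory cells, ranged over 37.0 to 99.1 and 72.0 to 182 CPM, and Stxbp4 and Stxbp5 (tomosyn) over 12.3 to 29.9 and 9.84 to 44.2 CPM. Vamp3 and Vamp8 ranged over 60.7 to 150 and 66.7 to 237 CPM, and Vamp4, a VAMP of the Golgi and endosomes, over 21.5 to 50.9 CPM. The members given a range here are ones that passed in no comparison, so their lack of calls is no result about such genes. Of the same families, Vamp5 was called lower in M2 than in adipose neurospheres (log2 ratio -2.37). Stxbp6 was called lower in M2 neurospheres than in fresh bowel cells (-3.08). No share of all genes called in no comparison was taken.

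Per kilobase of exon, the make-up of families shifted between libraries. Snap25 took 38.8% of the CPM per kilobase of the 4 SNAP genes in fresh bowel cells, 10.5% in M1 neurospheres, 9.09% in tdTomato-negative cells and at most 1.09% in the 4 others. Snap47, a SNAP of internal membranes, took the largest share in 6 libraries, from 43.4% to 70.6%, and Snap23 in fresh adipose cells, 50.9%. Vamp2 took 36.4% of 6 VAMP genes in fresh bowel cells and 35% in M1 neurospheres, where it led the family. In fresh adipose cells and adipose neurospheres Vamp8 took 59.6% and 58.9%, against 24.0% to 42.0% in the bowel libraries.

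Syn2 took 84.7% of synapsin CPM per kilobase in tdTomato-negative cells and 8.13% in tdTomato-positive ones, in which Syn1 had 62.1%. Cplx1 took 86.9% of complexin CPM per kilobase in fresh bowel cells, 65.5% in M1 and 7.25% in M2 neurospheres, the rest being nearly all Cplx2. Of the 17 synaptotagmins, Syt11 had the largest share in each library, from 34.6% in fresh bowel to 92.3% in fresh adipose cells. Syt5 was second in fresh bowel cells (24.4%), Syt13 in tdTomato-negative cells (28.5%) and Syt4 in the other cultured libraries, from 11.7% to 25.1%. Exon lengths were those of all annotated transcripts joined, so the shares depend on which transcripts were made.

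**Figure D5:**
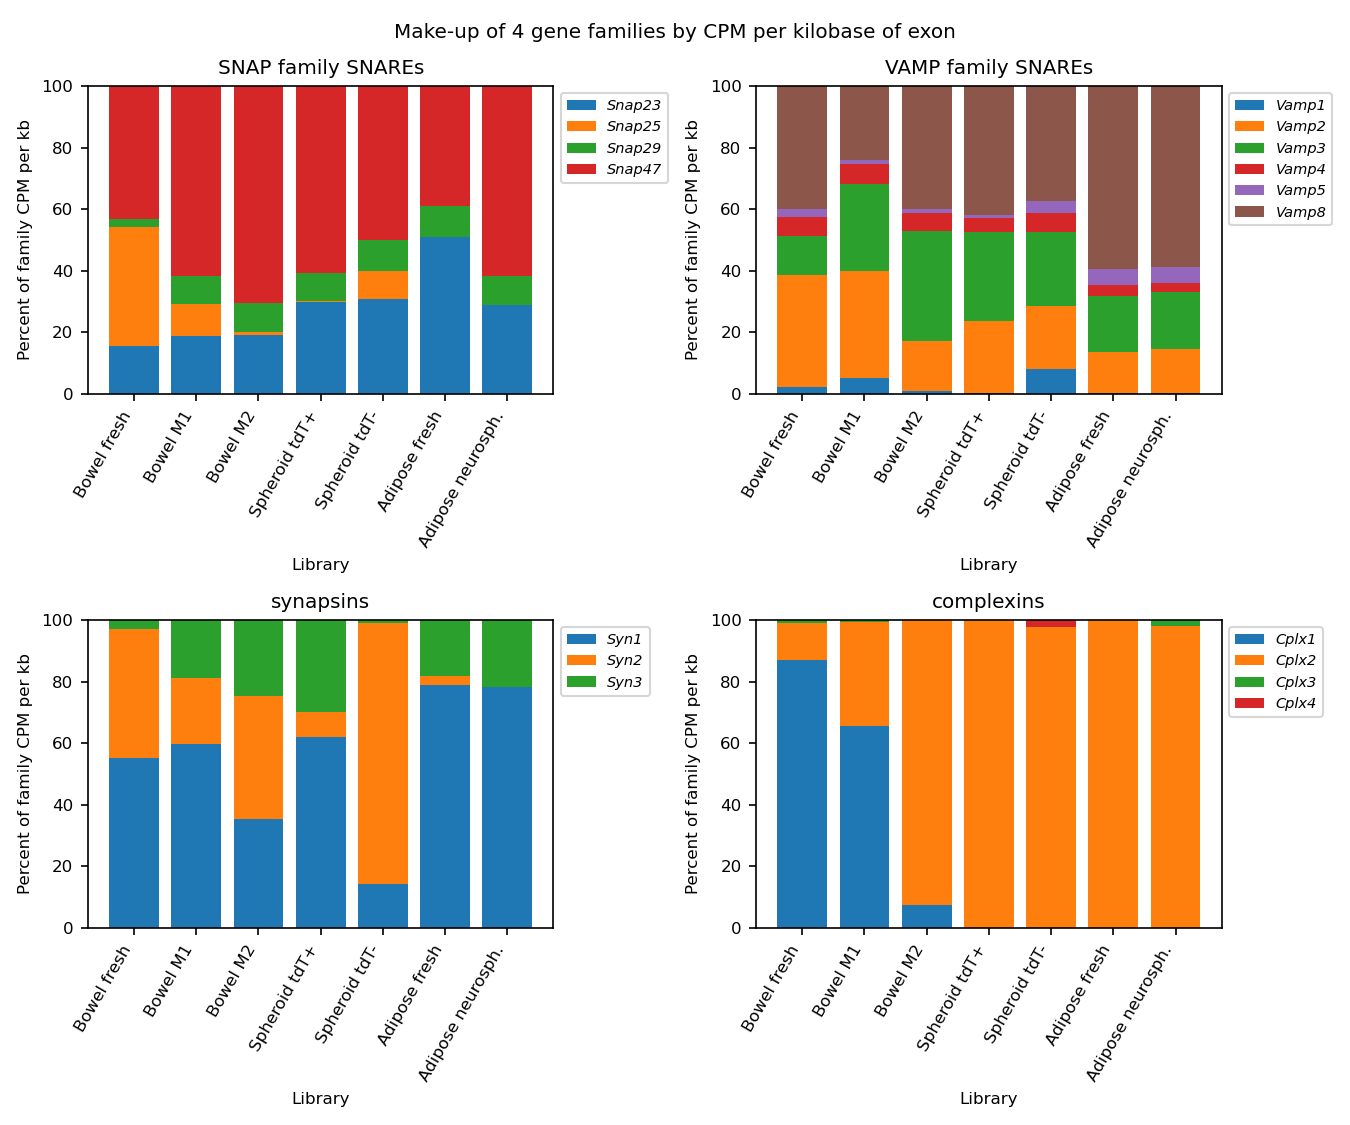
Stacked bars of the percent of CPM per kilobase of exon taken by each gene of 4 families (SNAP SNAREs, VAMP SNAREs, synapsins and complexins) in the 7 libraries. Snap25 takes 38.8% of the SNAP genes in fresh bowel cells, 10.5% in M1 neurospheres and 9.09% in tdTomato-negative cells, Cplx1 takes 86.9%, 65.5% and 7.25% of the complexins in fresh bowel cells, M1 and M2 neurospheres, and Syn2 takes 84.7% of the synapsins in tdTomato-negative cells.

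Beyond the naming rule, 45 other genes of the release pathway were read from a list. Of these, 19 of 45 measured were called higher in fresh bowel than in fresh adipose cells and 1 lower, and 12 of 44 were lower in M1 and 19 of 44 lower in M2 neurospheres than in fresh bowel cells (none and 1 higher). The list's median log2 ratios were 1.42, -0.48 and -0.99 in these 3 comparisons. Over all genes, 11.4% were called higher in fresh bowel cells, and 16.4% and 21.0% lower in M1 and M2 neurospheres. In the spheroid sort 8 of 33 were higher in tdTomato-positive cells and 5 lower, beside 6.64% and 12.5% of all genes. Stx1a, the plasma membrane partner of Snap25, had 24.8 CPM in fresh bowel cells, 18.5 in M1 and 6.37 in M2 neurospheres, 5.77 and 8.86 in positive and negative spheroid cells, and 7.78 and 2.14 in fresh and cultured adipose cells. Cadps, which primes peptide vesicles, had 19.3, 16.5, 19.7 and 16.9 CPM in fresh bowel, M1, M2 and tdTomato-positive spheroid cells and at most 0.417 CPM in the 3 others. Synpr (synaptoporin), a synaptophysin relative, had 312 CPM in tdTomato-positive spheroid cells and 280.0 CPM in M2 neurospheres, against 2.61 to 24.6 CPM in the 5 others. Dynamin 1 (Dnm1), which cuts vesicles free for reuse, was highest in tdTomato-negative cells at 175 CPM, against 1.75 to 41.6 CPM elsewhere.

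Vesicles are filled by transporters, of which 8 were read. Slc18a3, which loads acetylcholine, had 118 CPM in fresh bowel cells, 9.81 in M1 neurospheres and at most 0.0929 CPM elsewhere. Slc18a2, which loads amines, had 116 CPM in fresh bowel cells, 205 in M1 and 50.4 in M2 neurospheres and 26.0 CPM in tdTomato-positive spheroid cells. Slc17a6, a glutamate loader, had 9.54 CPM in tdTomato-negative and 5.36 CPM in fresh bowel cells, and at most 0.173 CPM elsewhere. Slc32a1, the GABA loader, was listed at 0 reads in all 7 libraries. Of 10 genes of dense-core vesicles, which carry peptides, 9 were called higher in fresh bowel than in fresh adipose cells, beside 11.4% of all genes. Against fresh bowel cells, 4 were lower in M1 and 9 in M2 neurospheres, beside 16.4% and 21.0% of all genes. Against tdTomato-positive spheroid cells, 5 were higher and 1 lower in M2 neurospheres, beside 3.07% and 3.84%. Secretogranin 2 (Scg2) had 847, 151, 22.6 and 2.38 CPM in fresh bowel, M1, M2 and tdTomato-positive spheroid cells.

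The 7 members that reached 1 CPM in no library were Cplx3, Cplx4, Rims4, Stx19, Syngr4, Syt8 and Vamp7. The highest level among them was 0.594 CPM (Stx19, fresh adipose cells). Vamp7, a SNARE of lysosomes in most cells, was listed at 0 reads in all 7 libraries. The annotation used in counting is not given, so whether reads of Vamp7 could be counted is not known and no level is read from it. Low members that reached 1 CPM were Syt14 (at most 2.51 CPM, M1 neurospheres), Syt10 (1.66 CPM, tdTomato-positive spheroid cells), Rims3 (3.55 CPM, M1 neurospheres) and Bsn (3.16 CPM, M1 neurospheres). Exons on the opposite strand overlap those of Stx18, Syp, Syt4, Syt12 and Snap47 in 11.6% to 19.8% of their bases, and no source used here gives the strand setting of the counting, so their counts are less certain.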

How the data were processed

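The deposited table gives CPM by Entrez identifier for all 7 libraries. The submitters' processing notes name mm10, featureCounts, HISAT and bcl2fastq 2.17; their settings, annotation and remaining versions were not given in any source used. Per the labels' protocols, about 50000 cells a group gave RNA for SMART-Seq v4 and Nextera XT libraries, without molecular identifiers, so reads are not independent molecules. Whole reads were recovered from the CPM: 100% of values were whole within 0.05 read, and 3 reads, the floor used for 0 reads, are 0.0459 to 0.0578 CPM. Of 27179 identifiers 25275 matched a symbol of the RefSeq table of GRCm38.p6.

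Libraries were scaled by TMM (edgeR 4.0.16, R 4.3.3) over 16461 genes at 1 CPM in a library. Log2 ratios used a prior count of 2, which understates low genes; intervals are 95% exact conditional binomial. No count test could be run, since 1 library a group leaves no residual degrees of freedom. Steps were tested on simulated data. Tables were handled in pandas 2.3.3 and numpy 2.4.6 under Python 3.11.15, intervals in scipy 1.17.1, and plots in matplotlib 3.10.9. Exon lengths and overlaps came from GENCODE M21 (GRCm38). Alternatives were total-count and DESeq2 1.42.0 scaling, no filter, 5 CPM, a prior of 0.5 and a 2-fold rule whose interval need only exclude equality. The members, the 22 brain-type genes, 18 further gene lists (all 164 entries found) and 7 comparisons were chosen with earlier results of these data known. All members may be named, with values in all libraries for those at 10 CPM or brain-type; other genes come from the lists, and the overlapping Timp3 was added after its values were seen. Values of 2 genes are not reported here singly; the counts and sums over members and lists include them.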

Additional observations from a re-analysis of the deposited data

Results flagged for a closer look

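Sv2b and Syt5 were called in opposite directions by culture in fat and bowel. Sv2b, a vesicle protein that takes part in transmitter release, had a log2 ratio of 4.45 in adipose neurospheres over fresh adipose cells (3.72 against 0.125 CPM) and of -4.40 in M2 neurospheres over fresh bowel cells (0.735 against 13.3 CPM). Syt5, a calcium sensor, had 2.42 in fat (2.37 against 0.375 CPM) and -7.34 in bowel (0.75 against 105 CPM). In fat both genes were low, with 229 against 8 reads for Sv2b and 146 against 24 reads for Syt5. Both stayed under 5 CPM there, so their calls in fat do not hold with the filter at 5 CPM. Each ratio rests on 1 library a side, and the difference between tissues was not tested.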

How the results depend on the processing

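No paired analysis was possible because each group had 1 library, and no library could be left out of a group. Total-count scaling moved log2 ratios of all genes by -0.02 to 0.46 and DESeq2 scaling by at most 0.03. It turned the members' median of the spheroid sort from -0.08 to 0.16, gave 1 member higher in M1 neurospheres in place of 0, and ended 12 of 138 member calls; DESeq2 scaling and a prior count of 0.5 ended none. Without a filter, 2 members in place of 1 were lower in fresh bowel cells, and 1 in place of 0 lower in the second culture stage. With a filter at 5 CPM, the counts were 0 higher in M2 over fresh bowel (1 as reported), 2 higher and 4 lower in adipose culture (5 and 8), 11 higher and 2 lower in M2 over adipose neurospheres (20 and 4), and 4 higher in the second stage (8). Under the 2-fold rule, they were 4 lower in fresh bowel cells (1), 3 higher and 28 lower in M1 (0 and 14), 2 higher and 34 lower in M2 over fresh bowel (1 and 22), 11 higher in adipose culture (5), 7 lower in M2 over adipose neurospheres (4), and 17 higher and 3 lower in the second stage (8 and 0). All other counts were within 1.5 times those reported. Shares of all genes were taken only for the calls as reported, so the counts under these other settings have no share to be set against. Depth limits genes under 1 CPM, whose ratios rest on few reads.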

Other observations

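Some genes near the release pathway were high in 1 or 2 libraries. Slc17a8, a vesicular glutamate transporter, had 10.5 CPM in adipose neurospheres and at most 0.231 CPM in the 6 other libraries. Sytl2, a synaptotagmin-like effector of Rab27 in secretory cells, had 123 CPM in adipose neurospheres and 62.9 CPM in tdTomato-negative spheroid cells, against 1.75 to 12.4 CPM elsewhere. The peptide gene Cck had 94.7 CPM in tdTomato-negative spheroid cells, 13.6 CPM in the positive cells and 1.80 CPM in fresh bowel cells. Sncg, a synuclein of peripheral neurons, had 402 CPM in fresh bowel cells and 16.8 CPM in M1 neurospheres. These genes were picked after their values were seen, from lists written earlier.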
